A study of Mus musculus with 4 samples.

Results

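The 55 genes described here encode transcription factors that pattern tissues of the embryo and do not belong to the Hox clusters. They were taken by symbol from a table of 34315 features and each matched 1 row. They fall into 15 groups by DNA-binding domain, from the DLX and IRX homeodomain proteins to the forkhead (FOX), T-box, PAX, GATA and SOX families. Such factors switch on the genes that give an organ or body region its identity, and most are kept silent outside the tissue they specify. In stem cells of adult blood their genes are typically held silent by Polycomb group proteins, and many lie in broad stretches of low DNA methylation, the kind of domain named in the title of the series.

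Messenger RNA was selected by poly(A) from haematopoietic stem cells (HSCs), self-renewing marrow cells from which all blood lineages descend, freshly sorted from C57BL/6 mice. The sort took cells of the SP-KSL-CD150+ phenotype, SP being the side population that stays dim because it exports a DNA dye. Wild-type HSCs are present as 4 libraries that the labels call technical replicates of biological replicate 1, although the series design speaks of duplicates. The other arm, HSCs labelled Dnmt3a-KO, lacks by its label the de novo DNA methyltransferase Dnmt3a. It is read here from the authors' deposited table alone. Only its mean per feature, the fold change on the log2 scale and the adjusted p were used for that arm. The sources used here give neither the age of the animals nor how Dnmt3a was deleted. Whether the wild-type libraries hold more than 1 sort of cells cannot be told from the labels, so their SD may be technical, and fewer cells of a type cannot be told apart from less RNA per cell.

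Wild-type libraries held 40709659 to 47408552 counts, so a gene without a read could still have been at 0.0633 to 0.0737 CPM (counts scaled to a common library total), taking 3 counts as the limit and counting error alone. Over features with at least 20 reads, libraries 1 and 2 had a median chi-square per feature of 0.763, and libraries 3 and 4 had 0.682. Most of the 55 genes lie under that limit. Across these pairs the median was 11.99 to 12.95, so results are given for each pair. All 8 HSC markers examined, among them Kit, Slamf1, Procr and Hlf, were present in every library, summing to 3129 to 3776 CPM. Dnmt3a had 7824, 8186, 5661 and 5546 reads in libraries 1 to 4. Its mean in the arm labelled knockout was 8424 normalised counts against 6852 in wild type, for which the authors' deposited table gives a log2 fold change of 0.30 (adjusted p = 0.952). Whole-gene counts cannot test the label where a shortened transcript persists.

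Most of the 55 genes were silent or close to it in wild-type HSCs. No read fell on 18 of them (32.7%, against 26.6% of all features), and 18 more had 1 to 3 reads over the 4 libraries together. A further 11 had 4 to 20 reads and 8 had more than 20. Normalised counts are reads divided by a size factor per library. A mean of at least 10 of these was reached by 6 of the 55 genes (10.9%), against 51.5% of all features. Those 6 were Nkx2-3, Tbx1, Tbx4, Isl1, Twist1 and Tbx15.

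Nkx2-3 stood apart as the only gene of the set at a high level. It encodes an NK2-family homeodomain protein needed for the spleen and for the gut wall and its vessels. It had 1833, 1892, 2468 and 2499 reads in libraries 1 to 4, or 2152 ± 230 normalised counts (SD over 4 libraries), and took 89.8% of all wild-type reads on the set. Per length of exon its wild-type level was 23.2 CPM per kb, above 83.5% of features with a read, while Gata2, a zinc finger factor of blood stem cells that is not one of the 55, was at 149 CPM per kb. An antisense feature, HAG_020247, overlaps the end of Nkx2-3 and had 4870 wild-type reads. Strand is not marked by the named kit, and the reads of such overlapping features cannot be told apart. The next gene by level per length, Tbx1, was at 0.762 CPM per kb.

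The next 4 genes by normalised count were far lower. Tbx1, a T-box factor of the pharyngeal arches, had 59, 49, 65 and 65 reads in libraries 1 to 4. Tbx4, a T-box factor of hindlimb and lung mesenchyme, had 62, 53, 62 and 53 reads. Isl1, a LIM-homeodomain factor of heart progenitors, motor neurons and pancreatic islets, had 46, 41, 58 and 60 reads. These 3 genes had means of 59.1 ± 5.22, 57.4 ± 6.48 and 50.7 ± 6.30 normalised counts (SD over 4 libraries), values whose ranges over the libraries overlap. Twist1, a basic helix-loop-helix factor of mesoderm and neural crest, had 7, 12, 39 and 34 reads in libraries 1 to 4. Its libraries therefore split by pair with no overlap. Those of Nkx2-3 and Isl1 split in the same way, with libraries 3 and 4 over 1 and 2 at smaller ratios of 1.20 and 1.22.

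**Figure D1:**
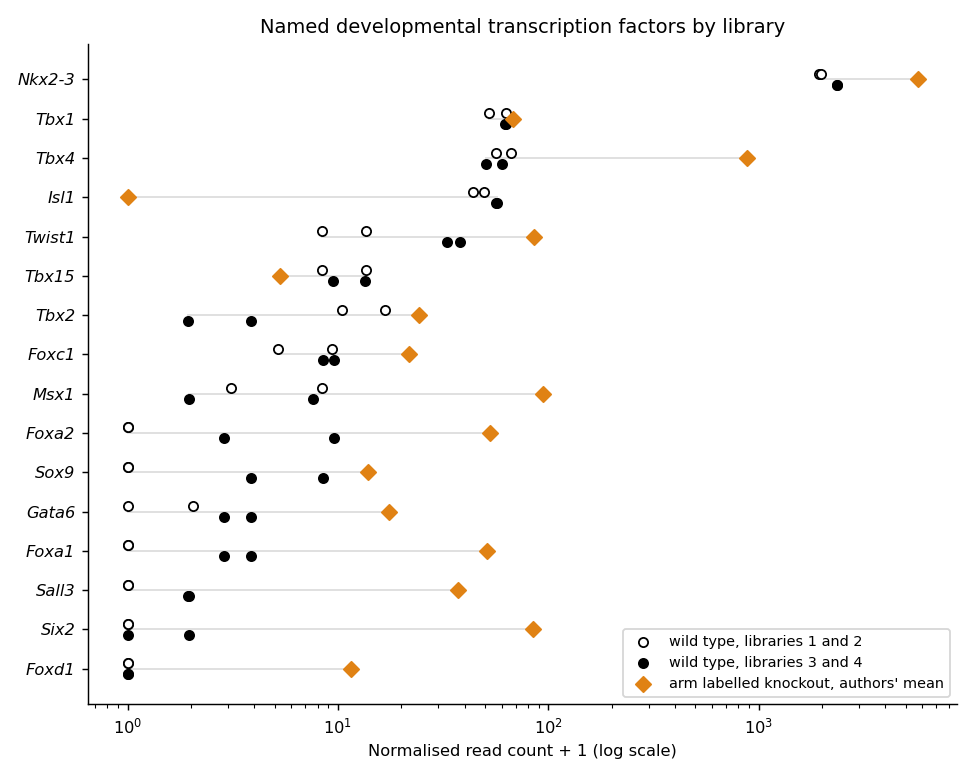
Normalised read counts plus 1, on a log axis, for the 16 genes of the set that were called, were among the 8 highest in wild type or reached 10 normalised counts in either arm. Open and filled circles are the 2 pairs of wild-type libraries and diamonds the authors' mean for the arm labelled knockout placed on the same scale; Six2 sits at 0 or 0.954 in the 4 wild-type libraries and at 83.7 in the other arm.

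Between the wild-type pairs, 2 of the 7 genes with at least 10 normalised counts in a pair were at least 2-fold apart, a fold taken after adding 1 count. Over all features above the same level, 14.5% were that far apart. For Twist1 the averages were 9.96 (libraries 1 and 2) and 34.6 (libraries 3 and 4) normalised counts, a ratio of 3.47. Tbx2, a T-box repressor of heart and limb development, went the other way, with 9, 15, 3 and 1 reads and pair averages of 12.6 and 1.90 normalised counts. Without library 2 the average of Tbx2 stays under 10 in both pairs and the count falls to 1. Summed markers of mature blood cells also differed between the pairs, at 595, 578, 81.7 and 82.5 CPM in libraries 1 to 4, with all 8 markers read. Mesenchymal stromal markers summed to 54.7, 52.2, 72.4 and 67.8 CPM in libraries 1 to 4, all 10 of them with reads. Pdgfrb, the highest of these, averaged 1215 and 1065 normalised counts in the pairs, while Dcn was at 2.09 and 24.2, Col3a1 at 1.58 and 15.2 and Cxcl12 at 484 and 932. Epithelial markers summed to 101 and 105 CPM in the first pair and to 166 and 168 in the second. The part of these lists in the values of Twist1 and Tbx2 was not tested.

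The sequences just upstream of the transcription start ranged from CG-dense to more ordinary among a few genes of the set, chosen by their values. CG pairs, the sites of DNA methylation, are printed in capitals in the 250 bases before the RefSeq start of 4 genes (build GRCm38.p6, sequence of the gene's own strand, 5′ to 3′). They are Six2 and Isl1, which moved furthest in opposite directions between the arms, Msx1, which was called higher, and Nkx2-3, the highest in wild type.
Six2 (chr17:85688255-85688504, minus strand): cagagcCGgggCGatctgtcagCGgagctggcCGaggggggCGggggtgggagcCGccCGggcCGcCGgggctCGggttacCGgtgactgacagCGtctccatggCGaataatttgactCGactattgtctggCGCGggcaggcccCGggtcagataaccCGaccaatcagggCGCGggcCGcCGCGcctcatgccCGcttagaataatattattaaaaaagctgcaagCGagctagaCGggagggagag
Isl1 (chr13:116309689-116309938, minus strand): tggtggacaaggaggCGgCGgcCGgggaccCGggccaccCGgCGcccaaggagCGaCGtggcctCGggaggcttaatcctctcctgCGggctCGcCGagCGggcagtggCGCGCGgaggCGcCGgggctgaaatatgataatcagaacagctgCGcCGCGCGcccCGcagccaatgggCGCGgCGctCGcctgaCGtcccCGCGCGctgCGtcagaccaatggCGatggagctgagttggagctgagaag
Msx1 (chr5:37824586-37824835, minus strand): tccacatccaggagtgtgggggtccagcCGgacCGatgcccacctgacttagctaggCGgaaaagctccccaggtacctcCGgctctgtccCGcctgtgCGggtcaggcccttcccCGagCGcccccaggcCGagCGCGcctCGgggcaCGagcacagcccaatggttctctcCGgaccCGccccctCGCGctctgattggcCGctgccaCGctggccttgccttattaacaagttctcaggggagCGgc
Nkx2-3 (chr19:43612075-43612324, plus strand): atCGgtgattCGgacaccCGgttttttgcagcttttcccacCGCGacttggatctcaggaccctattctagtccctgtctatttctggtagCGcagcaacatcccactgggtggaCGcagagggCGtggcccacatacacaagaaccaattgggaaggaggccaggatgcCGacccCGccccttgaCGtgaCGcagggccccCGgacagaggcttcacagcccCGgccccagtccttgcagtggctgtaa

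Isl1 holds 33 CG pairs in its 250 bases, Six2 holds 26, Msx1 holds 20 and Nkx2-3 holds 14. The ratio of observed to expected CG pairs, given the C and G content, was 1.05 for Isl1 and 1.02 for Six2, above 95.3% and 93.3% of 17492 protein-coding genes. It was 0.704 for Msx1, above 64.7% of those genes, and 0.626 for Nkx2-3, above 57.1%. Called genes did not all have CG-dense stretches before the start that was read. Before Foxa2 this stretch holds 6 CG pairs at a ratio of 0.376, above 39.0% of genes. Foxa2 has 3 annotated starts, and which of them is used in these cells was not tested. Foxa1 and Tbx4, with 1 annotated start each, hold 21 and 6 CG pairs at ratios of 0.887 and 0.285. The motif GGGCGG, which itself holds a CG pair, was found on either strand in Six2, Msx1 and Nkx2-3 and in 42.7% of all protein-coding promoters of this length. CCAAT was found in all 4 and in 36.5% of promoters, and TATAAA in none of the 4 and in 12.4%. A comparison over the whole set is void, because a promoter was found for only 33 of the 55 genes, under the 80% required.

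The comparison of the arms asks which of these genes differ in transcript level between HSCs labelled Dnmt3a-KO and wild type. In the authors' deposited table, 6 genes of the set rose in the arm labelled knockout at an adjusted p under 0.05, Six2, Sall3, Foxa1, Foxa2, Msx1 and Tbx4, and 1 fell, Isl1. Only 24 of the 55 carry a fold change there. The other 31 had at most 9 reads over both arms, and the authors' rule for giving a fold change is not known. The 6 rises are 25% of those 24, where 3.15% of all 21778 tested features were called higher, and the 1 fall is 4.17%, where 3.70% were called lower. Among features under 10 normalised counts in wild type 6.29% were called higher, and in the set this held for 5 of 18. Genes with almost no wild-type read carry a fold change here through their knockout reads alone, and the set was drawn up with these results known, so the shares describe the genes and test nothing.

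Foxa1 and Foxa2, related forkhead factors that open chromatin for endoderm and liver genes, rose together. Foxa1 (chromosome 12, 58641619 to 58647108, mm9) had 0, 0, 3 and 2 reads in the wild-type libraries and 152 over the 4 libraries behind the knockout mean. The authors' deposited table gives a 21.6-fold rise (adjusted p = 0.0012). Foxa2 (chromosome 2, 147868614 to 147872705) had 0, 0, 9 and 2 wild-type reads and 157 in the knockout arm, and the authors' deposited table gives a 14.4-fold rise (adjusted p = 0.00464). All wild-type reads of this pair of genes came from libraries 3 and 4, against which the knockout mean was 21.1-fold and 9.89-fold higher. On the normalised scale the knockout means were close, at 50.1 for Foxa1 and 51.7 for Foxa2.

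Six2 and Sall3 went from near silence to a moderate count. Six2 maintains the progenitors of kidney nephrons, and Sall3 is a zinc finger factor of the Spalt family that acts in limb and nervous system development. Six2 (chromosome 17, 86083608 to 86087594, mm9) had 1 wild-type read, in library 3, and 254 in the knockout arm. With so few wild-type reads the ratio is given by its exact Poisson 95% interval, 59.8 to 13342. The authors' deposited table gives a fitted 5.83 on the log2 scale, or 56.7-fold (adjusted p = 4.63e-05), which lies under that interval. Sall3 had 1 read in library 3, 1 in library 4 and 110 in the knockout arm, an interval of 19.7 to 609, while the authors' deposited table gives 4.40 on the log2 scale (adjusted p = 0.00205). Reads copied by PCR are not separate molecules, and these intervals hold counting error alone.

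Msx1 and Tbx4 rose from levels seen in every wild-type library. Msx1, a homeodomain repressor of craniofacial and limb development (chromosome 5, 38211730 to 38215824, mm9), had 7, 2, 1 and 7 wild-type reads and 283 in the knockout arm. Its mean of 93.3 normalised counts was 19.7-fold over libraries 1 and 2 and 24.8-fold over libraries 3 and 4, and the authors' deposited table gives 17.5-fold (adjusted p = 0.00135). Msx1as, annotated antisense across Msx1, had 7, 1, 0 and 4 wild-type reads and 228 in the knockout arm and was also called higher, but reads of the 2 strands cannot be told apart. Tbx4 (chromosome 11, 85703565 to 85729599) reached 876 normalised counts from 57.4, which was 14.5-fold over libraries 1 and 2 and 16.1-fold over libraries 3 and 4. The authors' deposited table gives 15.0-fold (adjusted p = 0.00117). An antisense feature at its end, HAG_006997, had 251 wild-type reads and 1838 in the knockout arm and was called higher as well.

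Isl1 was the single gene of the set called lower. Its 205 wild-type reads, spread over all 4 libraries, compare with 0 in the knockout arm (chromosome 13, 117088478 to 117099896, mm9). It was at least 51.6-fold lower, taking 3 counts summed over that arm as the limit, and the authors' deposited table gives a fitted 42.2-fold, -5.40 on the log2 scale (adjusted p = 0.000273), which lies under that limit. How the table treats 0 reads is not known. The other LIM-homeodomain genes, Lhx1, Lhx2 and Lhx9, had 1 wild-type read each, so a fall could not have been seen in them. In the knockout arm Lhx2 had 8 reads and Lhx1 and Lhx9 had 0.

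**Figure D2:**
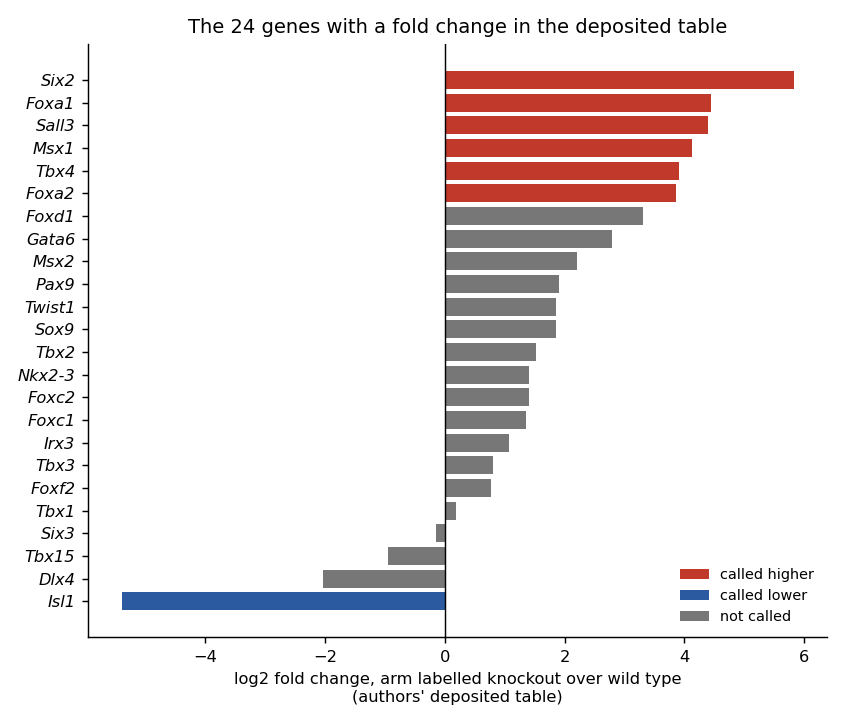
Log2 fold change of the arm labelled knockout over wild type from the authors' deposited table, for the 24 genes of the set that have one. Red and blue bars mark the 6 genes called higher and the 1 called lower at an adjusted p under 0.05; 20 of the bars point up and 4 down, from 5.83 for Six2 to -5.40 for Isl1.

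Just outside the threshold lay Foxd1 and Gata6. Foxd1, a forkhead factor of kidney stroma, had 0 reads in all 4 wild-type libraries and 32 in the knockout arm, at least 14.1-fold higher against 3 counts over the wild-type libraries, and the authors' deposited table gives a fitted 9.88-fold, under that limit (adjusted p = 0.0633). Gata6, a zinc finger factor of heart and endoderm, had 0, 1, 3 and 2 wild-type reads and 50 in the knockout arm, for which the authors' deposited table gives 6.89-fold (adjusted p = 0.0859). Its relatives Gata4 and Gata5, which also act in the heart and endoderm, had 1 and 0 wild-type reads and 3 reads each in the knockout arm.

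For 8 further genes the arms did not pass the threshold in the authors' deposited table. Nkx2-3 had 5718 normalised counts in the knockout arm, 2.93-fold and 2.43-fold those of the wild-type pairs, and the authors' deposited table gives an adjusted p of 0.41. Twist1 stood at 84.4 normalised counts in the knockout arm, 8.47-fold libraries 1 and 2 but 2.44-fold libraries 3 and 4, and its adjusted p in the authors' deposited table was 0.218. Tbx2 was at 23.4, which is 1.86-fold and 12.3-fold the pairs, where the authors' deposited table gives an adjusted p of 0.423. For Twist1 and Tbx2 the size of the difference depends on which wild-type pair is taken. Foxc1, a forkhead factor of mesoderm and of the marrow niche, was at 20.8 normalised counts against 7.17 in wild type, and Sox9, the chief factor of cartilage, at 12.9 against 2.59. Their adjusted p values in the authors' deposited table were 0.504 and 0.321. Sox9 had 0, 0, 3 and 8 wild-type reads, and its knockout mean was 2.48-fold libraries 3 and 4, so its difference depends on the pair too. Tbx1 was at 67.2 against 59.1 and had the smallest positive log2 fold change in the set, 0.18 in the authors' deposited table. Tbx15, a T-box factor of skeleton and muscle, was at 4.28 against 10.2, and Six3, a forebrain and eye factor, had 15 wild-type and 9 knockout reads.

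**Figure D3:**
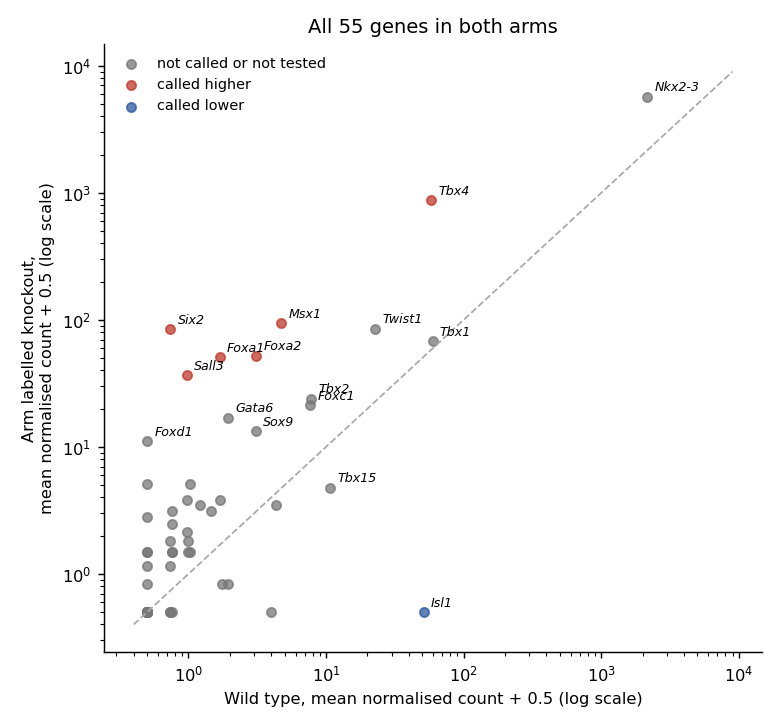
Mean normalised counts plus 0.5 of all 55 genes in wild type (horizontal, log axis) and in the arm labelled knockout (vertical, log axis), with the dashed line marking equal values. The 11 genes with 0 reads in both arms share the lowest point, and most others with few reads lie above the line, as do all 6 genes called higher.

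Besides the genes with values above, no gene of the set had more than 14 wild-type or 14 knockout reads. No read in either arm fell on 11 genes: Six6, Sall4, Dlx6, Irx1, Tbx5, Tbx20, Pax2, Pax3, Nkx2-5, Sox2 and Hand2, which include the chief factors of heart muscle (Nkx2-5, Tbx5, Tbx20, Hand2), of kidney (Pax2), of muscle and neural crest (Pax3) and of the pluripotent embryo (Sox2, Sall4). Another 7 had no wild-type read but some in the knockout arm. Besides Foxd1 these were Msx2 with 14 reads, Wt1 with 7, Gata5 and Sox17 with 3 each, Sall1 with 2 and Irx4 with 1. Wt1 is a zinc finger factor of kidney and gonad, and Sox17 acts in endoderm and in fetal HSCs. The reverse, some wild-type but no knockout reads, held for 5 genes: Isl1, Dlx4 with 14 wild-type reads, and Lhx1, Lhx9 and Dlx2 with 1 each. All 14 reads of Dlx4 came from libraries 2 and 4, at 6 and 8, while libraries 1 and 3 had 0. Dlx4 overlaps A730090H04Rik on the opposite strand, which had 2, 4, 9 and 15 wild-type reads and 3 in the knockout arm. Reads of these overlapping features cannot be told apart.

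Counted over all 55 genes without a minimum, 35 had a higher normalised mean in the knockout arm, 9 a lower one and 11 were at 0 in both. The median of log2 ratios with 1 count added was 0.66 over the 55 genes and 0 over all features. In the authors' deposited table the 24 genes with a value had a median of 1.69 on the log2 scale, against -0.10 over all tested features. Of the 24, 20 were positive (83.3%, against 45.9% of tested features). Since 18 of the 24 were under 10 normalised counts in wild type, this share describes the genes and tests nothing. Leaving out Nkx2-3, the set summed to 245 normalised counts in wild type and 1475 in the knockout arm, of which Tbx4 supplied 876. Among the 31 genes with no fold change in the table, 15 had more normalised counts in the knockout arm, 5 had fewer and 11 were at 0, each resting on at most 9 reads over both arms.

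All 6 forkhead genes were tested and 2 were called higher (3.15% of all tested features were). In the authors' deposited table each of the 6 was above 0 on the log2 scale, as were 45.9% of all tested features. Foxd1, Foxc2, Foxf2 and Foxa1 rest on 0, 2, 4 and 5 wild-type reads. A fall could hardly have been seen in these genes, so the shared sign tests nothing. Of 7 T-box genes 5 were tested and 1 was called higher. The 6 DLX genes, which pattern jaws and forebrain, had 23 wild-type and 8 knockout reads among them, and the 5 IRX genes, which act in heart and nervous system patterning, had 11 and 16. The 5 PAX genes had 6 and 21 reads, of which Pax9, a factor of thymus and teeth, gave 2 and 14. Pax6 and Pax8, factors of eye and of thyroid and kidney, had 2 wild-type reads each and 4 and 3 knockout reads. Otx1, Pitx1 and Zic2, which act in forebrain, hindlimb and neural plate, had 1 wild-type read each.

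Several of these genes lie side by side on a chromosome, with 8 pairs lying within 500 kb. Both genes of a pair carry a fold change in only 3 of these, Six2 with Six3, Tbx2 with Tbx4 and Foxc1 with Foxf2. Six2 was called higher while Six3, 58.1 kb away, had 15 wild-type and 9 knockout reads. Tbx4 was called higher while Tbx2, 48.1 kb away, had 28 and 71 reads. Foxc1 and Foxf2 lie 175 kb apart with 29 and 4 wild-type reads and 63 and 8 knockout reads. Each of the DLX pairs, Dlx1 with Dlx2, Dlx3 with Dlx4 and Dlx5 with Dlx6, lies within 15.2 kb, and of these 6 genes Dlx4 alone carries a fold change. Differences between neighbours were not tested, and the low counts of Six3 and Tbx2 leave wide counting error.

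**Figure D4:**
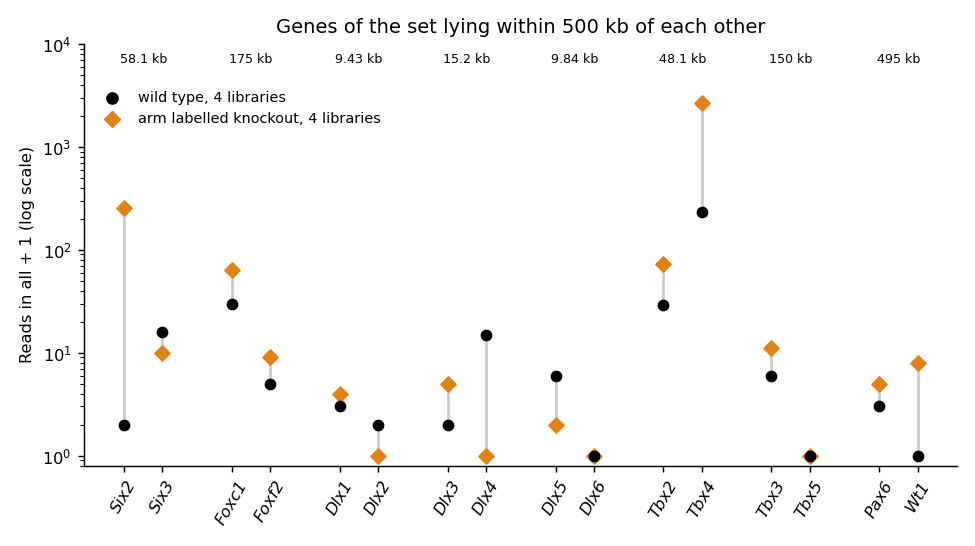
Reads plus 1, on a log axis, summed over the 4 wild-type libraries (circles) and over the 4 libraries behind the knockout mean (diamonds), for the 8 cases of genes of the set lying within 500 kb. The distance is written above each pair; Six2 and Tbx4 stand far from their wild-type values, and Six3 and Tbx2, their neighbours, do not reach the threshold.

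Relatives of the set from the same families, 81 genes that are not part of it, moved in both directions. Of these 34 were tested in the authors' deposited table, 4 rose and 4 fell, where 3.15% and 3.70% of all tested features did. Their median log2 fold change was 0.75, against -0.10 over all tested features. Sox10, the neural crest factor, rose from 1 wild-type read to 469 (adjusted p = 1.2e-06, the authors' deposited table). Foxa3, the third gene of the liver forkhead group, went from 271 to 4374 normalised counts (adjusted p = 0.000801, the authors' deposited table), so all 3 FOXA genes were called higher. Eomes, a T-box factor of mesoderm and of T and NK cells, went from 2.74 to 53.4, and Six4 from 1.92 to 33.9. Among those that fell in the authors' deposited table were Gata1, the master regulator of red cells, from 1460 to 45.2 normalised counts, Sox5 from 198 to 28.3 and Sox6 from 4631 to 774. The highest relatives in wild type, Gata2, Sox4, Sox6 and Sall2, had 21132, 5775, 4631 and 2434 normalised counts.

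Marker genes of other tissues were read beside the set. Over 5 lists for mesenchymal stroma, osteoblasts, endothelium, epithelium and neural tissue, 28 of 34 genes were tested, 0 were called higher and 4 were called lower in the authors' deposited table, where 3.15% and 3.70% of all tested features were. With 28 genes, 0 called higher is near the first share, while 4 called lower is above the second. Neither count was tested. Those lower were Lepr and Cxcl12 of marrow stroma, Ibsp of bone and Syp of neurons. The stromal list summed to 2715 normalised counts in wild type and 1729 in the knockout arm, and the endothelial list to 16941 and 16177. The endothelial sum was mostly Tie1, at 14612 and 14890. The osteoblast list was at 5700 and 5629, mostly Runx2 at 5424 and 5250, while Alpl was at 45.7 and 12.5. Of its 5 tested genes 4 were below 0 on the log2 scale and 1 above, Spp1, which went from 184 to 364. The neural list was at 246 and 73.8. Markers of mature blood cells summed to 14384 and 15126, with 0 of 8 called higher and 1 called lower. That wild-type value averages unlike pairs, at 25085 in libraries 1 and 2 and 3683 in libraries 3 and 4. The knockout sum lies between them, so these sums do not show equal levels in the arms. The epithelial list was at 5946 and 17798, most of it Krt18, which went from 5613 to 17243 and was not called. Krt8 of that list went the other way, from 145 to 30.7, and was not called either. Of the 4 epithelial genes tested, 2 were above 0 on the log2 scale and 2 below. Krt5 and Krt14 had 0 reads in both arms, as had Snap25 and Olig2 of the neural list. The part of other cell types in the values of the set was not tested.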

How the data were processed

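Poly(A)-selected RNA of sorted HSCs was made into libraries with a TruSeq kit, per the labels' protocols. Counts are whole reads per feature and library as deposited by the authors; aligner, counter and annotation: not given in the sources used here. Per the submitters' processing notes, mm9 and DESeq were involved, in a role not stated. The authors also deposited a length-scaled signal, which kept 1 ratio to the count across libraries in all 20187 features with reads in each, so it served only for exon length. The deposited log2 fold change was read as knockout over wild type, since its sign followed that of the arms for 100.0% of features changed by over 1. The deposited p-value was read as adjusted, since 17567 values are shared between features and 1549 equal 1.

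Of 30 columns, 8 hold per-library values that match no sample here, and these were left out. Size factors (median of ratios) scaled the wild-type counts, and the knockout mean was placed on that scale by an offset of 0.40 log2 units (SD 0.003 over 11936 features with at least 100 counts in both arms). Own ratios add 1 count, and reads of the knockout arm are its mean times 4. No test between arms was run: a gene was called where the authors' deposited adjusted p was under 0.05. Functions were tested on simulated data. Coordinates in mm9 are those of the table; promoters are RefSeq's, in GRCm38.p6. The genes, lists and alternatives were chosen with earlier results of these data known. Values are given for every gene called, the 8 highest in wild type and those with 10 normalised counts in either arm, and for up to 4 called relatives each way, some of which are not reported here; other genes of the set named with few reads, and the marker genes named with values, were chosen after their values were seen. Python 3.11.15, numpy 2.4.6, pandas 2.3.3 and scipy 1.17.1 were used.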

Additional observations from a re-analysis of the deposited data

Results flagged for a closer look

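Gaps within the wild-type libraries were looked for in the 16 named genes, and chance alone sets a library apart in about 1 in 20 groups of 4. In Six2, library 3 stood apart at 0.954 normalised counts, which is its only wild-type read, so this gap was fixed by the count. In Tbx1, library 2 stood apart at 51.3 normalised counts, with the other libraries at 61.0 to 62.1.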

How the results depend on the processing

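The 6 genes called higher numbered 4 to 8 and the 1 called lower stayed 1 under the other thresholds, levels and rules tried; 4 is the number without Msx1 and Tbx4, whose positions overlap another feature. The 6 genes detected in wild type became 37 when 1 read was enough, and 5 to 6 when a library was left out. The median log2 fold change of 1.69 became 2.86 with a minimum of 10 counts over both arms, by the filter's own construction. The authors' values were not recomputed per library. The median of own ratios, 1.72 with all 4 libraries, was 1.63 to 1.84 when a library was left out, 2.03 with only libraries 1 and 2 as wild type, and 1.30 with only 3 and 4. The 2 genes apart between wild-type pairs became 1 with a minimum of 20 counts and 4 with a minimum of 5, and 1 to 2 when a library was left out. The planned promoter comparison was not run, since too few genes had a sequence. No paired analysis was possible because there is 1 labelled group. Depth limits the genes with under about 10 wild-type reads: there, a fall of several-fold could not have been detected. A rise could be called there only where the knockout arm had many reads, as for Six2, Sall3 and Foxa1.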

Other observations

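Wild-type library 1 gave reads for fewer genes of the set than library 2, although their totals were 40709659 and 40798800. A read was seen for 12 genes of the set in library 1 and for 24 in library 2, with 13 seen in library 2 alone of the pair and 1 in library 1 alone. Libraries 3 and 4 gave 23 and 26, with 4 and 7 seen in only 1 of that pair. The same held over all features, of which 2263 had a read in library 2 and none in library 1, and 314 the reverse. For libraries 4 and 3 these numbers were 1327 and 722. The cause was not tested.

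Next to Pax9 lies Slc25a21, a mitochondrial carrier gene, which fell in the authors' deposited table from 132 to 12.2 normalised counts with an adjusted p of 0.00889, while Pax9 itself had 2 wild-type and 14 knockout reads. Irx2 lies beside Gm20554, which had 20 wild-type reads and 0 in the knockout arm and was not called. Both neighbours were chosen after their values were seen.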
